A study of Mus musculus with 38 samples.

Results

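Atp1b1, Atp1b2, Slc12a2 and Slc12a5 encode membrane proteins that set the resting and chloride potentials of neurons, and their ribosome footprints were followed across all 14 groups of a ribosome profiling experiment in mouse cortical neurons. The 4 genes were chosen by name for what their proteins do, with earlier results of these data known, out of 22401 genes with an annotated coding sequence. Atp1b1 and Atp1b2 are beta subunits of the sodium pump, and Slc12a2 and Slc12a5 are the chloride cotransporters also known as NKCC1 and KCC2. All 4 were counted in all 38 libraries and passed the filter on low counts in every comparison.

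The sodium pump exchanges intracellular sodium for extracellular potassium at the cost of ATP, and its beta subunit is needed to fold the catalytic alpha subunit and bring it to the plasma membrane. Slc12a2 carries chloride into the cell with sodium and potassium, whereas Slc12a5, which is largely restricted to neurons, carries chloride out with potassium and so keeps GABA inhibitory in mature neurons. The balance of both cotransporters is known to shift towards Slc12a5 as cortical neurons mature, and sustained depolarization loads neurons with the ions that these proteins move.

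Primary cortical neurons from CD-1 mouse embryos carried a doxycycline-inducible lentiviral biotin ligase, either PSD95-TurboID, which the PSD95 transcript elements carry to dendrites, or Pan-TurboID, which carries no signal for a compartment. Neurons were left at rest (REST) or depolarized (DEP) after 2 h of silencing with TTX and DL-AP5 by 55 mM KCl for 1 h. Cycloheximide for 2 min and biotin for 30 min followed per the labels, in that order per the methods. By the methods, labelling of depolarized neurons began once fresh medium with TTX and DL-AP5 had replaced the KCl. The labels do not say whether the resting neurons were silenced, and the methods give a shorter time with biotin for DHPG. Ribosomes of the whole lysate gave the inputs (in), which sample translation in the whole cell, and streptavidin gave the pulldowns (pd), which sample ribosomes near the ligase. Both ligases, both conditions and both fractions made 8 groups of 3 libraries.

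The other groups came from separate experiments with PSD95-TurboID as the labels name the virus, although some of their labels place the sample in the cytosol. Dlg4, which encodes PSD95 and parts of which that ligase's transcript carries, stood at 1139.8 ± 90.6 CPM (counts scaled to a common total of coding sequence counts; SD, n = 3) in the DHPG pulldowns and at 43.8 ± 5.53 (n = 3) in the resting Pan pulldowns. DHPG, which activates metabotropic glutamate receptors, was given at 100 µM for 10 min to neurons that gave 3 inputs and 3 pulldowns with no resting counterpart of their own. Per the labels these neurons had also been silenced for 2 h beforehand. Neurons given 20 nM siRNA against eIF4G2, a translation initiation factor, for 72 h (KD) gave 2 libraries each of resting and KCl-depolarized inputs and pulldowns, and control siRNA samples were not analysed here. The depolarized knockdown neurons had 2 h of silencing and 55 mM KCl for 1 h, as above. Levels are therefore set side by side across experiments without a test, since experiment and group cannot be told apart.

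The libraries held 2048604 to 14646402 footprints in coding sequences. Eif4g2 itself stood at 307 ± 27.5 CPM (SD, n = 4) in the knockdown inputs and at 599 ± 86.0 CPM (SD, n = 6) in the PSD95 inputs of the KCl experiment. In the DHPG inputs, also without siRNA, it stood between these at 451 ± 6.40 CPM (SD, n = 3). All 10 early genes listed as a check, which neuronal activity is known to induce, were higher after KCl in each of the 5 KCl comparisons. The summed level of 8 neuronal markers lay between 5552 and 11343 CPM, that of 9 astrocyte markers between 242 and 1650 CPM and that of 9 oligodendrocyte lineage markers between 22.7 and 609 CPM, while 7 microglial markers summed to at most 24.8 CPM. The third depolarized Pan input lay at or near the lowest level of all 4 genes among the inputs of the KCl experiment, and results that change without it are also given without it. Neither the labels nor the values tell whether the libraries of a group came from separate cultures, and the study's methods call them biological replicates that each pool several dishes.

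The start of each coding sequence is shown because the counts below split a gene's footprints at the start codon. Each sequence runs over the start codon on the coding strand, with the ATG in capitals, and is taken from GENCODE M21 transcripts on GRCm38 (mm10). None is shown for Slc12a2. Atp1b1 has 6 coding exons between 164438276 and 164457857 on the minus strand of chromosome 1, Atp1b2 has 7 between 69601248 and 69605372 on the minus strand of chromosome 11, and Slc12a5 has 26 between 164968403 and 164997471 on the plus strand of chromosome 2.
Atp1b1, chr1:164457837-164457866, minus strand: gcagacaccATGgcccgcggaaaagccaag
Atp1b2, chr11:69605352-69605381, minus strand: gcctccaagATGgtcatccagaaagagaag
Slc12a5, longest transcript, chr2:164968394-164968423, plus strand: gcagccaccATGctcaacaacctgacggac
Slc12a5, upstream first exon, chr2:164960874-164960903, plus strand: ccgcgcgccATGagccgcaggttcacggtc

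The coding sequence of Slc12a2 lies on the plus strand of chromosome 18 between 57878807 and 57944051 in 27 coding exons. The coding sequences of Atp1b1 (915 nt) and Atp1b2 (873 nt) were shorter than the median of all genes (1101 nt), and those of Slc12a2 (3621 nt) and Slc12a5 (3348 nt) lay at the 93.3rd and 92.0th percentiles of length. No exon of another gene overlapped them. The annotated 5′ UTRs measured 498 nt in Atp1b1, 457 nt in Atp1b2, 129 nt in Slc12a2 and 420 nt in Slc12a5. The 5′ UTR of the longest Slc12a5 transcript held 1 upstream ATG, which opened a reading frame of 2 codons before its stop, and those of Atp1b1 and Atp1b2 held 0.

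Atp1b1, the more abundant beta subunit of neurons, had the highest level of the 4 genes in every library, between 768 and 2054 CPM per kb of coding sequence with a median of 1245 over 38 libraries. Within each group it stood between the 99.4th and the 99.9th percentile of all genes. Atp1b2, the subunit that glia are known to carry as well, lay between 75.7 and 259 CPM per kb with a median of 179.6. Atp1b1 exceeded it in all 38 libraries, by 4.68 to 17.0 times with a median of 7.54.

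Slc12a5, the chloride exporter, lay between 54.4 and 277 CPM per kb with a median of 130, and Slc12a2, the chloride importer, between 10.7 and 39.3 CPM per kb with a median of 20.6. The exporter exceeded the importer in all 38 libraries, by 3.94 to 14 times with a median of 5.95. The ratio was widest in the DHPG experiment, 10.0 in the inputs and 12.5 in the pulldowns, and narrowest in the depolarized knockdown inputs, 3.96 (geometric means of 3, 3 and 2 libraries). The DHPG libraries also had the lowest summed astrocyte markers (242 to 290 CPM), and the part of glial cells in these ratios was not tested. In bulk samples, fewer cells of a type and less RNA per cell cannot be told apart.

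**Figure D1:**
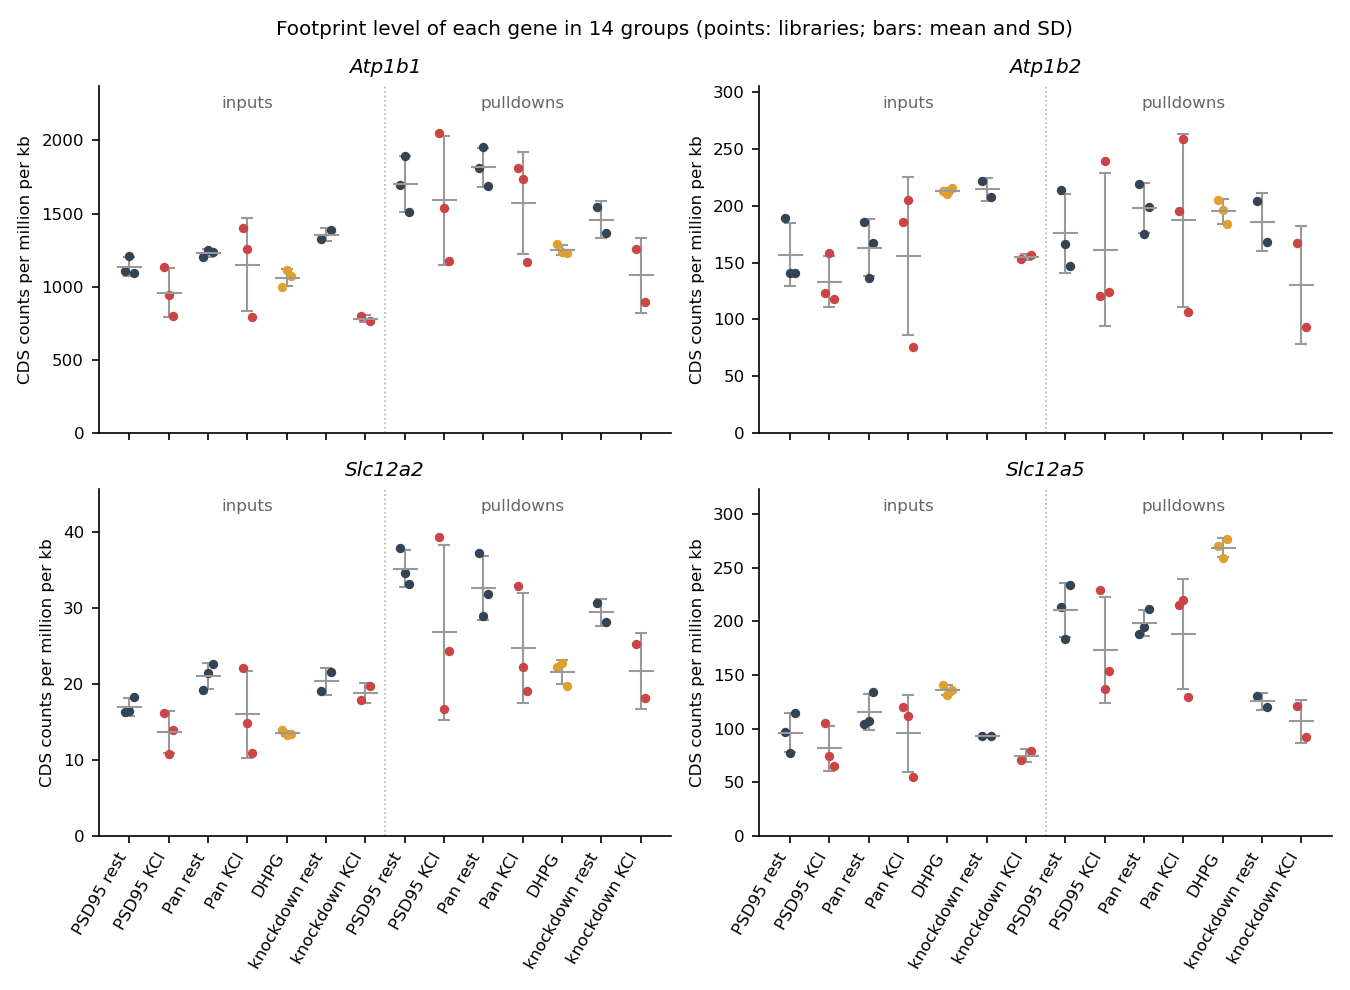
Level of each gene in the 14 groups, as CPM per kb of coding sequence on the vertical axis. Points are libraries and bars are the mean and SD of 3 libraries (2 in the knockdown groups), dark for resting, red for KCl and amber for DHPG. Atp1b1 lies highest in all groups and Slc12a2 lowest, and Slc12a5 is highest in the DHPG pulldowns (269 ± 8.85).

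Over group means, Atp1b1 was highest in the resting Pan pulldowns (1817 ± 135 CPM per kb, SD, n = 3) and lowest in the depolarized knockdown inputs (782 ± 20.6, n = 2). Slc12a2 was highest in the resting PSD95 pulldowns (35.2 ± 2.39, n = 3) and lowest in the DHPG inputs (13.5 ± 0.322, n = 3), and Slc12a5 was highest in the DHPG pulldowns (269 ± 8.85, n = 3) and lowest in the depolarized knockdown inputs (74.7 ± 6.03, n = 2). The order was mostly one of overlapping neighbours: of the 13 neighbouring pairs of groups, 2 had ranges that did not overlap for Atp1b1, 2 for Slc12a5 and 0 for Atp1b2 and Slc12a2. Atp1b2 had the flattest order, from 215 in the resting knockdown inputs to 130.3 ± 51.8 (n = 2) in the depolarized knockdown pulldowns.

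The first question was whether 1 h of KCl changed the translation of these genes in the whole cell, and no change was detected for any of the 4 over the inputs of both ligases. Atp1b1 measured 1106, 1210.0 and 1097 CPM per kb in the resting PSD95 inputs and 1133, 944 and 797 in the depolarized ones. It measured 1204, 1252 and 1237 in the resting Pan inputs and 1403, 1256 and 793 in the depolarized ones. The 6 resting libraries lay close together and inside the range of the 6 depolarized libraries, of which replicate 3 of either ligase was the lowest. The fitted log2 fold change was −0.13 ± 0.17 (SE; 95% interval −0.47 to 0.21; adjusted p = 0.658, edgeR quasi-likelihood).

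Atp1b2 ranged from 137 to 189 CPM per kb (median 154) over the 6 resting inputs and from 75.7 to 205 (median 141) over the 6 depolarized inputs. Its log2 fold change was −0.11 ± 0.22 (95% interval −0.57 to 0.35; adjusted p = 0.792). The depolarized range spanned the resting one on both sides, and both its ends were Pan libraries, replicate 3 at 75.7 and replicate 2 at 205.

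Slc12a2 measured 16.2, 16.4 and 18.3 CPM per kb in the resting PSD95 inputs and 16.2, 10.7 and 13.9 in the depolarized ones, and 19.2, 21.4 and 22.6 in the resting Pan inputs and 22.1, 14.9 and 10.9 in the depolarized ones. Of the 6 depolarized inputs, 1 lay above the lowest resting input, 1 equalled it to the digits shown and the other 4 were lower. The log2 fold change was −0.33 ± 0.21 (95% interval −0.75 to 0.09; adjusted p = 0.307), and it passed the threshold when replicate 1 was left out (−0.65, adjusted p = 0.0134, edgeR). Summed oligodendrocyte lineage markers were 449 ± 155 CPM (SD, n = 6) in the resting and 241 ± 100 (n = 6) in the depolarized inputs, and their part in this estimate was not tested. Slc12a5 ranged from 77.58 to 134 (median 106) at rest and from 54.4 to 120.3 (median 89.5) after KCl, with overlapping groups and a log2 fold change of −0.21 ± 0.20 (95% interval −0.62 to 0.20; adjusted p = 0.522).

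Of the 13019 genes tested in these inputs, 15.4% were called at an adjusted p below 0.05 by edgeR, against 0 of the 4 here. DESeq2 and the edgeR likelihood ratio test also called 0 of 4, and 0 of 4 had an unadjusted p below 0.05. The median log2 fold change was −0.17 over the 4 genes and −0.01 over all genes tested. Without the third depolarized Pan input and pulldown, left out after seeing the data, the estimates in the inputs moved to −0.02 for Atp1b1, 0.06 for Atp1b2, −0.21 for Slc12a2 and −0.06 for Slc12a5. Of the 4 genes 0 were called there, and of all genes 1612.

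The pulldowns gave the same counts. In the PSD95 pulldowns 6.6% of genes were called and in the Pan pulldowns 5.03%, with 0 of the 4 in either and 0 of 4 at an unadjusted p below 0.05. Slc12a2 had the largest estimate of the 4 in both, −0.37 ± 0.29 (95% interval −0.96 to 0.22; adjusted p = 0.487) in the PSD95 pulldowns and −0.33 ± 0.28 (adjusted p = 0.592) in the Pan pulldowns. In its PSD95 pulldowns it measured 37.8, 34.6 and 33.2 CPM per kb at rest and 39.3, 16.7 and 24.4 after KCl, so replicate 1 did not fall and the others did. Without replicate 1 the estimate was −0.77 (adjusted p = 0.0468). Slc12a5 differed by −0.25 ± 0.28 in the PSD95 pulldowns and by 0.00 ± 0.28 in the Pan pulldowns, and Atp1b1 by −0.07 ± 0.24 and −0.14 ± 0.24. Without the third depolarized Pan libraries, the Pan pulldown estimates of Atp1b1 (0.07), Atp1b2 (0.30) and Slc12a5 (0.23) were above 0 and that of Slc12a2 (−0.14) was not.

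Counting every matched pair of the same ligase, fraction and replicate number, knockdown included, Slc12a2 was higher after KCl in 2 of 16 pairs, Atp1b2 in 4, Atp1b1 in 5 and Slc12a5 in 6. The median of the 16 log2 ratios on coding sequence totals was −0.39 for Slc12a2, −0.33 for Atp1b1, −0.27 for Atp1b2 and −0.18 for Slc12a5. These pairs mix experiments and fractions of the same cultures, and no test was made over them.

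**Figure D2:**
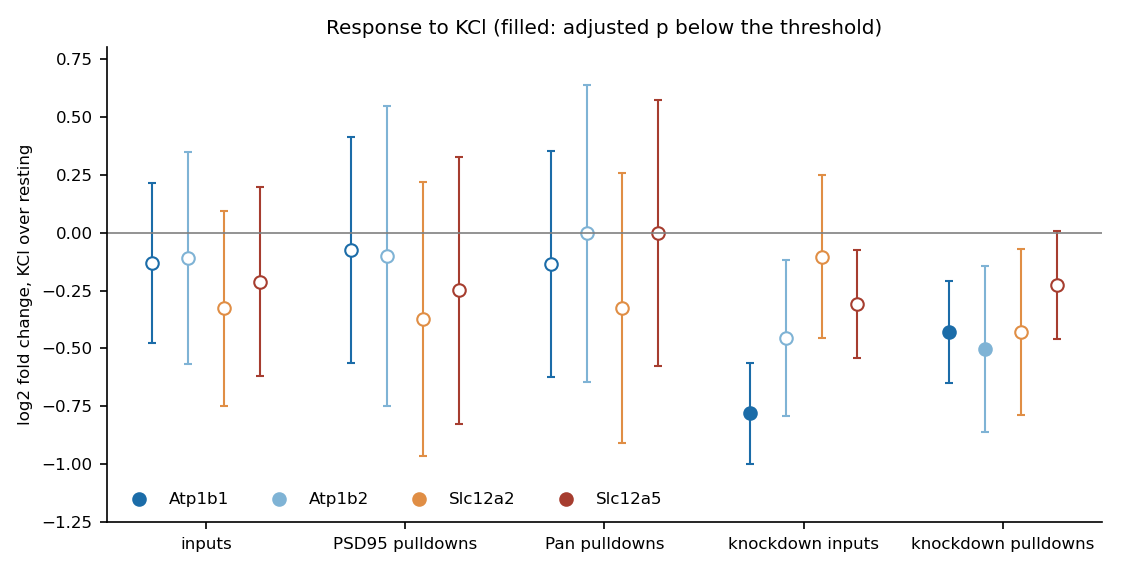
Log2 fold change of depolarized over resting neurons for the 4 genes in the 5 KCl comparisons, with 95% intervals from the edgeR fit. Filled points passed an adjusted p of 0.05, which in the knockdown comparisons holds for Atp1b1 in inputs and for Atp1b1 and Atp1b2 in pulldowns. In the neurons without knockdown every interval spans 0.

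In the neurons with eIF4G2 knockdown, Atp1b1 was lower after KCl. Its resting inputs measured 1324 and 1388 CPM per kb and its depolarized inputs 797 and 768, groups that did not overlap. The log2 fold change was −0.78 ± 0.11 (95% interval −0.998 to −0.561; adjusted p = 5.4e-06, edgeR), and it was between −0.82 and −0.75 with any 1 knockdown library left out. With coding sequence and 5′ UTR counted together, a setting added after seeing the data, it was −0.44 ± 0.10 (adjusted p = 0.00198), beside a share of Atp1b1 footprints in the 5′ UTR that was 36.0% and 35.4% in the resting and 52.5% and 53.5% in the depolarized libraries. The same count gave −0.18 ± 0.13 for Atp1b2 (adjusted p = 0.387). Here 1 of the 4 genes was called, against 19.3% of the 12239 genes tested, and the median of the 4 was −0.38 beside 0.02 over all genes.

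Atp1b2 measured 222 and 207 CPM per kb in the resting knockdown inputs and 153 and 157 in the depolarized ones. The groups, here and below of 2 libraries each, did not overlap, and the share of all genes without overlap is not given here. The log2 fold change of −0.46 ± 0.16 had an adjusted p of 0.0513, or 0.0230 with the replicate number as a block (edgeR). Slc12a5 measured 92.9 and 93.5 at rest and 70.5 and 79.0 after KCl, without overlap, and the log2 fold change of −0.31 ± 0.11 had an adjusted p of 0.0555, or 0.0470 with the block. Slc12a2, at 19.04 and 21.6 at rest and 17.9 and 19.7 after KCl, overlapped (−0.10 ± 0.17; adjusted p = 0.732).

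In the knockdown pulldowns, 2 of the 4 genes were called where 22.2% of all genes were. Atp1b1 measured 1546 and 1367 CPM per kb at rest and 1258 and 897 after KCl (log2 fold change −0.43 ± 0.11; adjusted p = 0.00419, edgeR). Atp1b2 measured 204 and 168 at rest and 167 and 93.6 after KCl (−0.50 ± 0.17; adjusted p = 0.0384). The groups did not overlap for either gene, although Atp1b2 came within 1 CPM per kb. For both, the second depolarized pulldown was the lowest library, and without it the estimates shrank to −0.20 for Atp1b1 and −0.16 for Atp1b2. Without the first resting pulldown they were −0.34 for both genes. Without the first depolarized pulldown Slc12a2 was at −0.71 and Slc12a5 at −0.46. These fits leave 1 library in a group, so only the size of the estimate is given, and both calls rest on all libraries.

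Whether the KCl response itself differed with eIF4G2 knockdown was tested in the inputs, across experiments. The response of the PSD95 inputs without knockdown, the Pan inputs left out, was subtracted from that of the knockdown inputs. The difference was −0.54 ± 0.32 for Atp1b1 (unadjusted p = 0.100; adjusted p = 1.00, edgeR), −0.23 ± 0.37 for Atp1b2, 0.22 ± 0.40 for Slc12a2 and −0.07 ± 0.34 for Slc12a5. None of the 4 was called, where 0.00758% of all genes were, so a response called in the knockdown neurons and not in the others was not shown to differ between them. Summed GABAergic markers were 494 to 561 CPM in the knockdown inputs and 1030 to 1765 CPM in the inputs of the KCl experiment, and the part of that difference in these values was not tested.

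No difference in the balance within either protein pair passed the test in the inputs of the KCl experiment. The log2 ratio of Slc12a5 to Slc12a2 per kb was 2.46 ± 0.158 (SD, n = 6) in the resting inputs and 2.56 ± 0.271 (n = 6) in the depolarized inputs (difference 0.10, p = 0.455 in a two-sided exact permutation test, adjusted p = 0.909 over both ratios). The log2 ratio of Atp1b1 to Atp1b2 was 2.90 ± 0.243 and 2.91 ± 0.326 (difference 0.01, exact permutation p = 0.950, adjusted p = 0.950). The smallest p that 6 libraries against 6 allow is 0.00216, and the test takes as independent what are 3 replicate numbers with both ligases. Within a ligase, the first difference was 0.08 in the PSD95 inputs and 0.11 in the Pan inputs, and the second −0.03 and 0.05. In the knockdown inputs, with 2 libraries per condition and no test, neither ratio overlapped between conditions and both were lower after KCl. Slc12a5 to Slc12a2 was 2.29 and 2.11 at rest and 1.98 and 2.00 after KCl, the opposite direction to the difference above, and Atp1b1 to Atp1b2 was 2.58 and 2.74 at rest and 2.38 and 2.29 after KCl. In the knockdown pulldowns Slc12a5 to Slc12a2 was 2.09 in both resting libraries and higher after KCl, at 2.26 and 2.34, while Atp1b1 to Atp1b2 overlapped.

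Next, pulldowns were compared with their own inputs to ask which genes had more of their footprints near the ligase. On coding sequence counts Slc12a5 was the most enriched of the 4 in 6 of the 7 comparisons, and it was higher in the pulldown in all 19 matched pairs of libraries (log2 ratio on coding sequence totals 0.22 to 1.25, median 0.94). In the knockdown neurons this order changed when the trend with coding sequence length was removed, as described below. There Slc12a5 stood at 0.05 in both conditions and was not called. Atp1b1 stood at 0.53 at rest. After KCl Atp1b1 was the 1 gene called, and Atp1b2, at 0.30, was not. With the same trend removed, Atp1b1 was also the 1 gene called in the depolarized PSD95 pulldowns, where Slc12a5 stood at 0.72. Slc12a2 was higher in 18 of 19 pairs (−0.12 to 1.28, median 0.68), Atp1b1 in 18 of 19 (−0.02 to 0.86, median 0.47) and Atp1b2 in 12 of 19 (−0.74 to 0.59, median 0.08).

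At rest, Slc12a5 measured 96.8, 77.58 and 114 CPM per kb in the PSD95 inputs and 214, 184 and 234 in the PSD95 pulldowns, so that every pulldown lay above every input. Its log2 fold change was 1.16 ± 0.28 (adjusted p = 0.00718, edgeR). Slc12a2 was 1.09 ± 0.29 higher (adjusted p = 0.0107), and its pulldowns, given above, also lay above all its inputs. Atp1b1 measured 1697, 1893 and 1510.3 in these pulldowns, again all above the inputs, with a log2 fold change of 0.62 ± 0.24 (adjusted p = 0.0576, or 0.0209 with the replicate block). Atp1b1 was also called here by DESeq2 (0.66, adjusted p = 0.0293), with RLE size factors (adjusted p = 0.0473), with the most counted transcript (adjusted p = 0.0415) and with coding sequence totals as the scaling (adjusted p = 0.0454), and not by the likelihood ratio test. A block within condition, which pairs each pulldown with its own input, called it too (0.61, adjusted p = 0.000429, edgeR). Over all genes that block called 5029 in place of 3259. Atp1b2 measured 214, 166 and 147 in the pulldowns and 189, 141 and 141 in the inputs, which overlapped (0.20 ± 0.31; adjusted p = 0.678). Thus 2 of the 4 were called, against 25% of all genes. Without replicate 2 or replicate 3 none of the 4 was, while the estimates were 1.118 and 1.188 for Slc12a2 and 1.16 and 1.23 for Slc12a5. Over all genes, the number called went from 3259 to between 0 and 3358 with 1 replicate or the third depolarized Pan libraries left out.

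After KCl, 3 of the 4 were called in the PSD95 pulldowns over their inputs, against 12.6% of all genes. Slc12a5 measured 105, 74.2 and 65.2 CPM per kb in the inputs and 229, 137 and 154 in the pulldowns (log2 fold change 1.13 ± 0.28; adjusted p = 0.0164, edgeR). Slc12a2 was 1.02 ± 0.29 higher (adjusted p = 0.0268) and Atp1b1 0.77 ± 0.24 higher (adjusted p = 0.0352), with pulldowns at 2054, 1541 and 1174. Atp1b2 was at 0.32 ± 0.32 (adjusted p = 0.510). These calls rested on all replicates: 1 remained without replicate 1 and 0 without replicate 2 or replicate 3, with estimates that stayed between 0.70 and 1.21 for the 3 genes. Over all genes 1640 were called, and 3 to 1804 with 1 replicate or the third depolarized Pan libraries left out.

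The ligase without a dendritic signal gave similar estimates. At rest the Pan pulldowns exceeded their inputs by 0.83 ± 0.28 for Slc12a5 (188, 195 and 212 CPM per kb in the pulldowns against 104, 107 and 134 in the inputs), by 0.68 ± 0.29 for Slc12a2, by 0.61 ± 0.24 for Atp1b1 and by 0.33 ± 0.31 for Atp1b2. By edgeR 0 of the 4 were called (adjusted p = 0.0580, 0.116, 0.0934 and 0.519), where 9.6% of all genes were, although 3 of the 4 had an unadjusted p below 0.05. DESeq2 and the likelihood ratio test called 1, Slc12a5, and the replicate block called 2, Slc12a5 (adjusted p = 0.0322) and Atp1b1 (adjusted p = 0.0335). With the block set within condition, which pairs each pulldown with its own input, 3 of the 4 were called, Slc12a5 (0.84, adjusted p = 0.000577), Atp1b1 (0.61, adjusted p = 0.000892) and Slc12a2 (0.68, adjusted p = 0.00625). Over all 13019 genes this block called 3660 at rest, in place of 1250. After KCl, Slc12a5 was called (1.03 ± 0.28; adjusted p = 0.0315), or 1 of 4 against 8.83% of all genes, and with the block Slc12a2 was as well (0.70, adjusted p = 0.0491). The block within condition called Slc12a5, Atp1b1 (0.52, adjusted p = 0.00335) and Slc12a2 (0.70, adjusted p = 0.00613) after KCl, and 3636 of all genes in place of 1150. Without the third depolarized Pan input and pulldown, the resting Pan comparison gave 2 calls, Slc12a5 and Atp1b1, and the depolarized one gave 0. Over all genes, 1461 were then called at rest and 0 after KCl, so the 0 after KCl says nothing particular to these genes.

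Enrichment by PSD95-TurboID beyond that by Pan-TurboID, averaged over rest and KCl, was 0.37 ± 0.29 (95% interval −0.22 to 0.96) for Slc12a2, 0.22 ± 0.28 (−0.36 to 0.79) for Slc12a5, 0.14 ± 0.24 (−0.35 to 0.62) for Atp1b1 and −0.07 ± 0.31 (−0.71 to 0.58) for Atp1b2. None of the 4 was called (adjusted p = 1.00 for each, edgeR, 0 at an unadjusted p below 0.05, and 0 by DESeq2), against 0.00768% of all genes. The change of PSD95 enrichment with KCl, measured against both sets of inputs, was 0.06 ± 0.29 for Atp1b1, 0.01 ± 0.38 for Atp1b2, −0.05 ± 0.35 for Slc12a2 and −0.04 ± 0.34 for Slc12a5. In this comparison 0% of all genes were called, with 343 of 13019 at an unadjusted p below 0.05 and none of the 4 among them. These comparisons share the same pulldowns and inputs and are not independent of each other.

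In the DHPG experiment, 3 of the 4 genes were higher in the pulldown. Slc12a5 measured 141, 131 and 135 CPM per kb in the inputs and 270.3, 259 and 277 in the pulldowns (log2 fold change 1.19 ± 0.05; adjusted p = 1.2e-12, edgeR). Slc12a2 measured 13.9, 13.2 and 13.5 in the inputs and 22.2, 22.7 and 19.8 in the pulldowns (0.88 ± 0.09; adjusted p = 2.7e-08). Atp1b1 measured 997, 1115 and 1074 in the inputs and 1289.9, 1235 and 1231 in the pulldowns (0.45 ± 0.05; adjusted p = 5.8e-07). For these 3 genes the groups did not overlap. Of all genes tested here 79.8% were called, 40.5% as higher and 39.3% as lower. The 3 of 4 that were higher thus stand beside 40.5% of all genes, and a call alone was not particular to these genes. Slc12a5 stood at the 90.0th percentile of all log2 fold changes, Slc12a2 at the 80th and Atp1b1 at the 63.7th.

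Atp1b2 in the DHPG experiment measured 213, 209.9 and 216 CPM per kb in the inputs and 205, 196 and 184 in the pulldowns, so that every pulldown lay below every input on coding sequence totals. On the TMM scale of the fit its log2 fold change was 0.08 ± 0.07 (adjusted p = 0.263), and with coding sequence totals as the scaling it was −0.13. The direction for this gene therefore depended on the scaling, which moved the median of all genes by −0.21.

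**Figure D3:**
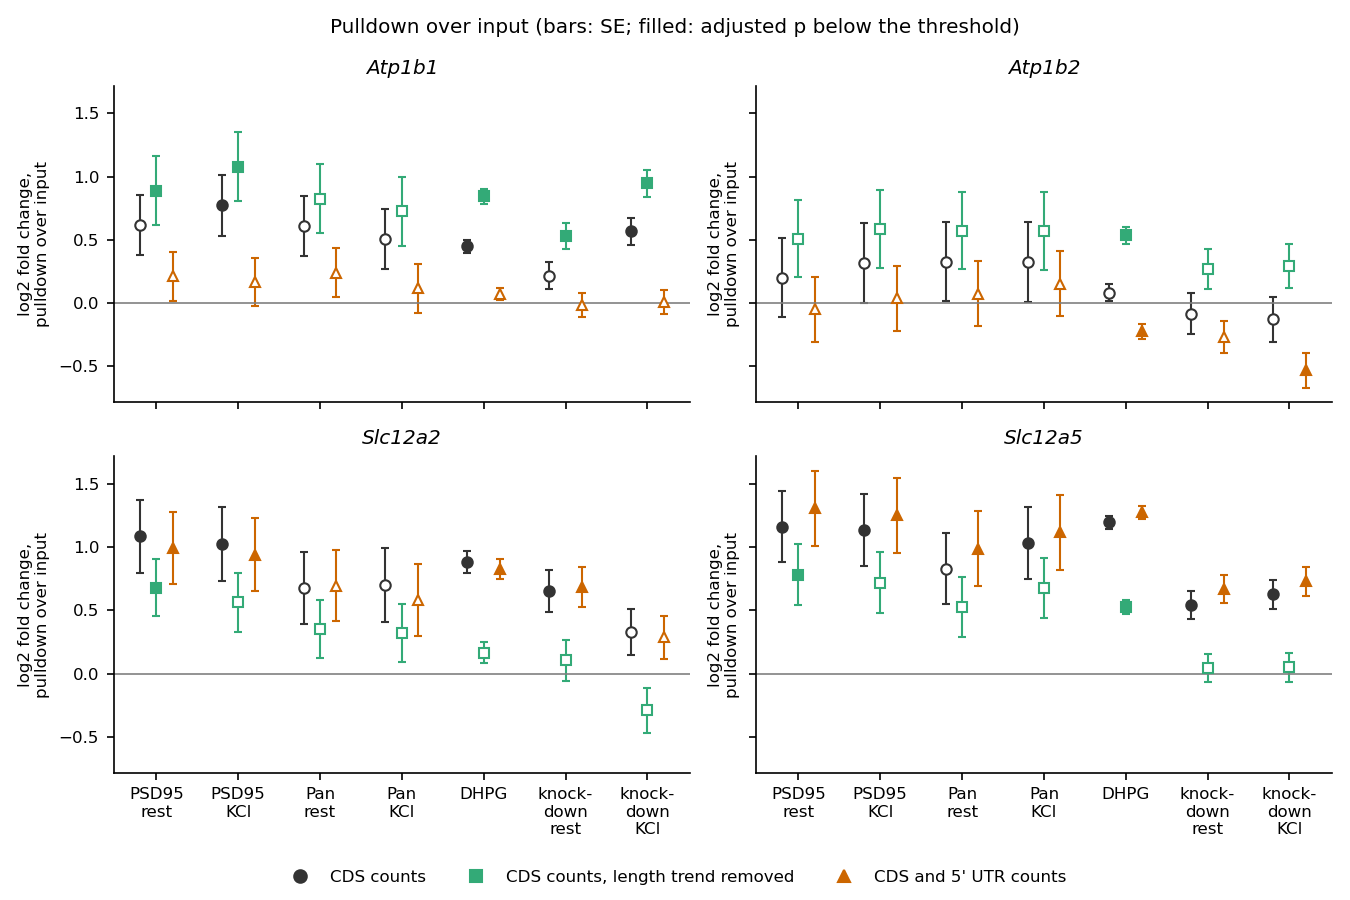
Log2 fold change of pulldown over own input for the 4 genes in the 7 comparisons, with SE from the edgeR fit. Circles are coding sequence counts, squares have the trend with coding sequence length removed and triangles count the coding sequence and 5′ UTR together, and filled symbols passed an adjusted p of 0.05. The circles of Slc12a5 lie between 0.54 and 1.19 and those of Atp1b2 between −0.13 and 0.33.

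In the knockdown neurons at rest, Slc12a5 and Slc12a2 were higher in the pulldown, with log2 fold changes of 0.54 ± 0.11 (adjusted p = 0.000237, edgeR) and 0.65 ± 0.16 (adjusted p = 0.00215). After KCl, Slc12a5 (0.62 ± 0.12; adjusted p = 7.2e-05) and Atp1b1 (0.57 ± 0.11; adjusted p = 9.5e-05) were higher. Of all genes, 45.5% were called at rest, 22.1% as higher, and 48.8% after KCl, 24% as higher. The 2 of 4 that were higher in each condition stand beside 22.1% and 24%, and a call alone was again not particular to these genes. With the trend of the fold change on coding sequence length removed, neither cotransporter was called (0.05 for Slc12a5 in both conditions and 0.10 for Slc12a2 at rest). The Slc12a5 pulldowns measured 131 and 119.9 CPM per kb at rest and 121 and 92.3 after KCl, all above the inputs of the same condition. Atp1b2 was at −0.08 ± 0.16 and −0.13 ± 0.18, below 0 in both and within its error. The latter estimate was −0.63 without the first depolarized pulldown and 0.22 without the second, with 1 library left in the group.

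Where a footprint was counted mattered for these estimates. The deposited counts assign a read by its 5′ end with no offset, so that a ribosome on the start codon is counted in the 5′ UTR. In the inputs, the share of a gene's footprints in the 5′ UTR, among those in the 5′ UTR and coding sequence, was 35.4% to 64.2% for Atp1b1 with a median of 48.1%, and 37.0% to 70.2% for Atp1b2 with a median of 44.6%. It was 12.5% to 36.5% (median 24.2%) for Slc12a2 and 5.76% to 21.5% (median 9.85%) for Slc12a5, while over all genes pooled it was 15.5% to 27.6% (median 20.6%).

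In the pulldowns these shares were lower in 19 of 19 pairs for each of the 4 genes and for all genes pooled. The median was 13.9% for Atp1b1, 21.8% for Atp1b2, 5.08% for Slc12a2, 1.51% for Slc12a5 and 6.54% over all genes. The median ratio of pulldown to input share was 0.312, 0.523, 0.227 and 0.141 for the 4 genes in this order, and 0.355 over all genes. Per nucleotide, the 5′ UTR of Slc12a2 was 4.14 times as dense as its coding sequence over all libraries, at the 93.8th percentile of 10162 genes, and that of Slc12a5 was 0.390 times as dense, at the 15.4th percentile. The 3′ UTRs held little, 0.137% to 1.45% of the coding density.

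**Figure D4:**
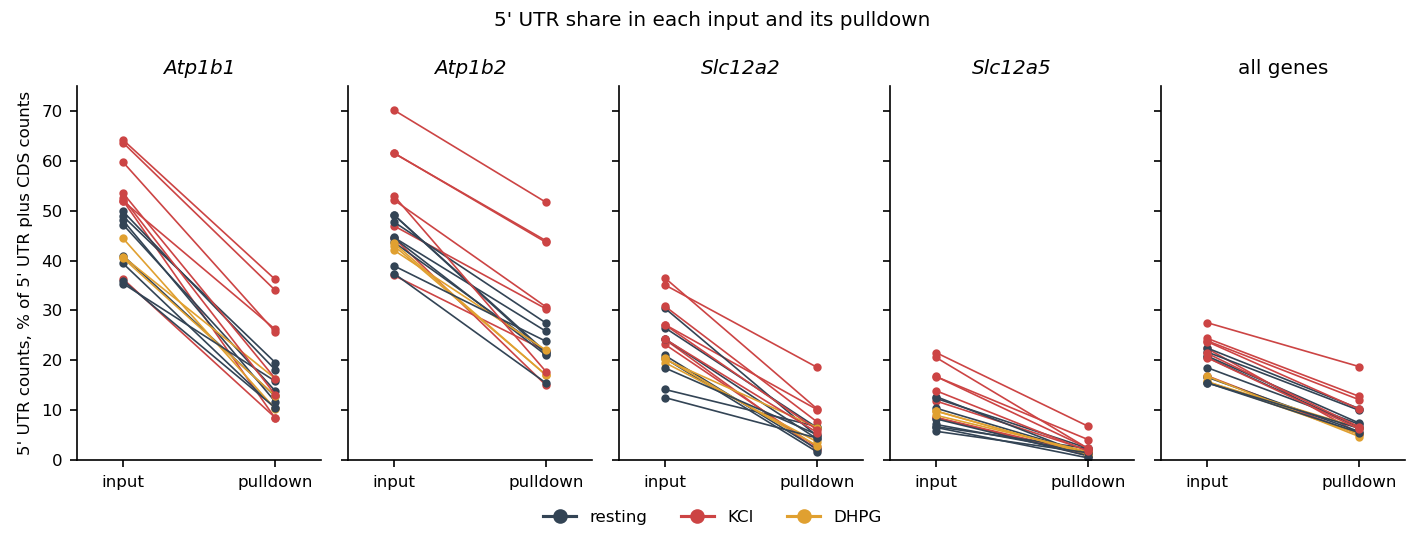
Share of each gene's footprints that fall in the 5′ UTR, in percent of 5′ UTR and coding sequence counts, in the input (left end) and pulldown (right end) of each of 19 pairs, for the 4 genes and for all genes pooled. Dark lines are resting, red KCl and amber DHPG. Every line falls, from an input median of 48.1% to a pulldown median of 13.9% for Atp1b1 and from 9.85% to 1.51% for Slc12a5.

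With the 5′ UTR counted together with the coding sequence, which was added after seeing the data, the enrichment of Atp1b1 was no longer called in 3 comparisons. It was 0.17 in the depolarized PSD95 pulldowns (adjusted p = 0.590), 0.07 after DHPG (adjusted p = 0.173) and 0.01 in the depolarized knockdown pulldowns (adjusted p = 0.953). Atp1b2 became lower in the pulldown after DHPG (−0.22, adjusted p = 0.00227) and in the depolarized knockdown neurons (−0.53, adjusted p = 0.00242). The calls of Slc12a2 and Slc12a5 did not change under this count, save that Slc12a5 was also called in the resting Pan pulldowns (0.99).

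Coding sequence length moved the other pair of genes. With the trend of the fold change on coding sequence length over all genes removed, Slc12a5 was no longer called in the depolarized PSD95 pulldowns (0.72, adjusted p = 0.0691), the depolarized Pan pulldowns (0.68) or, as given above, the knockdown pulldowns. Slc12a2 was no longer called in the depolarized PSD95 pulldowns (0.56, adjusted p = 0.138), after DHPG (0.17, adjusted p = 0.0834) or in the resting knockdown pulldowns. The short Atp1b1 went the other way and was called in the resting PSD95 pulldowns (0.89, adjusted p = 0.0294) and the resting knockdown pulldowns (0.53), as was Atp1b2 after DHPG (0.54).

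With KCl, the 5′ UTR share of each of the 4 genes was higher on average in the inputs, and no difference passed the test. For Atp1b1 it was 45.7 ± 4.40% (SD, n = 6) at rest and 54.6 ± 10.5% (n = 6) after KCl (two-sided exact permutation p = 0.0801, adjusted p = 0.121 over the 4 genes). For Slc12a2 it was 22.8 ± 5.63% and 29.5 ± 5.59% (exact p = 0.0693, adjusted p = 0.121), and for Slc12a5 9.60 ± 2.62% and 14.6 ± 5.83% (exact p = 0.0909, adjusted p = 0.121). For Atp1b2 it was 46.5 ± 2.49% and 53.6 ± 12.7% (exact p = 0.182, adjusted p = 0.182).

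Paired by replicate number, Slc12a2 and Slc12a5 were higher after KCl in all 6 pairs (exact sign-flip permutation p = 0.0313, the smallest that 6 pairs allow, adjusted p = 0.0625). The 6 libraries or pairs are 3 replicate numbers with both ligases, and these permutation tests take them as independent. The share over all genes pooled moved with them, from 20.1 ± 2.17% to 23.2 ± 3.51%, and its part in the values of the 4 genes was not tested. In the third depolarized Pan input, at or near the highest of all libraries, the shares were 63.6% for Atp1b1, 70.2% for Atp1b2, 36.5% for Slc12a2 and 20.6% for Slc12a5. Without it the differences were 7.11, 3.84, 5.30 and 3.84 percentage points in this order, beside 8.90, 7.15, 6.70 and 5.03 with it.

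In the knockdown inputs the same shares did not overlap between conditions for any of the 4 genes. Atp1b1 had 36.0% and 35.4% at rest and 52.5% and 53.5% after KCl, and Atp1b2 had 37.4% and 38.9% at rest and 53.0% and 52.1% after KCl. Slc12a2 had 18.5% and 12.5% at rest and 24.2% and 27.1% after KCl, and Slc12a5 had 5.76% and 6.54% at rest and 13.9% and 16.7% after KCl. The share over all genes pooled did not overlap in the same libraries either, at 15.5% in both resting inputs and 20.5% and 21.4% after KCl, so the separation was not particular to these genes. With 2 libraries against 2 an exact test cannot reach 0.05, so these are values without a test.

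Along the coding sequence, footprints in the pulldowns lay further from the start. Coding segments, the exon parts in which the counts were deposited, were split into those whose middle lay within the first 500 nt and the later ones. The early part was the first 5 segments of Slc12a5, the first 4 of Atp1b1 and of Atp1b2, and the single first segment of Slc12a2, which itself runs past 500 nt. The density of the later part, relative to that of the early part, was 1.36 for Slc12a5 in the pooled inputs and 6.67 in the pooled pulldowns, where the medians of 8662 genes were 0.682 and 1.56. The pulldown value of Slc12a5 was at the 99.0th percentile of these genes. Slc12a2 went from 0.592 to 2.35, Atp1b1 from 1.09 to 1.98 and Atp1b2 from 1.09 to 1.77. As a ratio of pulldown to input, the shift was 4.90 for Slc12a5 and 3.98 for Slc12a2 (94.8th and 86.1st percentiles), above the median of 2.37 over all genes. It was 1.82 for Atp1b1 and 1.63 for Atp1b2 (31.7th and 25.5th percentiles), below that median. The value was higher in the pulldown in 19 of 19 pairs for Slc12a5, Slc12a2 and Atp1b1 and in 18 of 19 for Atp1b2.

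By coding exon, the first 5 segments of Slc12a5 (52, 95, 132, 147 and 55 nt) had 0.705 to 0.842 times the gene's own mean density in the inputs and 0.179 to 0.275 times in the pulldowns. The sixth segment, at 1.26 in the inputs and 1.02 in the pulldowns, was the first at which both fractions came near each other. The long first segment of Slc12a2 (738 nt) had 1.52 ± 0.475 times the mean density (SD over 19 libraries) in the inputs and 0.486 in the pulldowns. The first segment of Atp1b1 went from 0.844 in the inputs to 0.276 in the pulldowns while its last went from 0.995 to 1.42, and the first of Atp1b2 went from 0.583 to 0.226 while its last went from 1.17 to 1.67. One segment of Slc12a5, the 24th with 15 nt, held 3 counts over all 38 libraries.

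**Figure D5:**
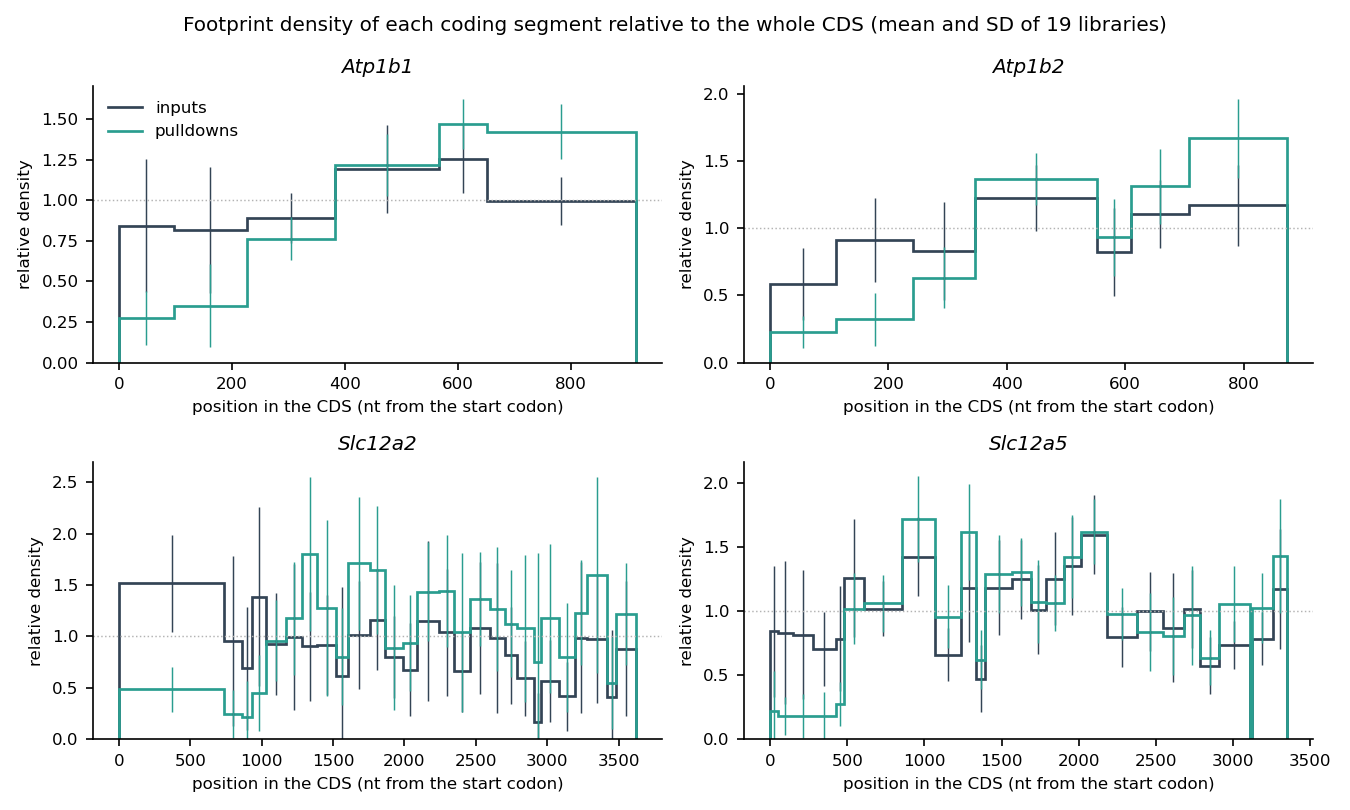
Footprint density of each coding segment relative to the gene's whole coding sequence, in order from the start codon, as the mean and SD over 19 inputs and 19 pulldowns. In all 4 genes the first segments lie lower in the pulldowns than in the inputs, such as 0.276 against 0.844 in segment 1 of Atp1b1.

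Slc12a5 is annotated with a pair of alternative first coding exons that give different N termini, whose start codons are shown above. Over all libraries the upstream exon (chr2:164960883-164961003, 121 coding nt) held 1515 counts, or 12.5 per nt, and the downstream exon of the longest transcript (chr2:164968403-164968454, 52 coding nt) held 755, or 14.5 per nt. The downstream share per nucleotide had a median of 48.2% over the 38 libraries and ran from 0% to 100%, on 0 to 135 upstream and 0 to 73 downstream counts per library. At this depth no difference between groups could be read from it, and no test was made. The count of the upstream exon's transcript in place of the longest gave the same calls for Slc12a5 in every comparison.

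Other genes of the same transport system were taken from lists of sodium pump subunits, pump regulators, other cation-chloride cotransporters, the kinases that control them, and chloride and bicarbonate transporters. Of 35 listed genes 26 were tested, and in the inputs after KCl 1 was higher, against 6.32% of all genes, and 8 were lower, against 9.03%. The median log2 fold change was −0.11 over the 26 and −0.01 over all genes. The number that were lower was 3 without replicate 2 and 1 without replicate 3. It was 5 with coding sequence and 5′ UTR counted together, a setting added after seeing the data. Over all genes the number called in these inputs was 1999, and 517 to 2095 with 1 replicate left out. Changes in the counts here and below are therefore not particular to these genes.

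Among them were kinases that phosphorylate the cotransporters. Wnk1, which activates Slc12a2 and inhibits Slc12a5 through downstream kinases, was lower after KCl, from 170 ± 26.7 CPM (SD, n = 6) to 79.9 ± 11.3 (n = 6), a log2 fold change of −1.05 ± 0.17 (adjusted p = 0.000117, edgeR). Its lowest resting input was 149 CPM and its highest depolarized input 96.1 CPM. Wnk2, a kinase of the same family, was lower by −0.84 ± 0.15 (adjusted p = 0.000287), from 351 to 192 CPM. Without replicate 3 Wnk2 was no longer called (−0.71, adjusted p = 0.0690), whereas Wnk1 was called with any 1 replicate left out. In all, 3 of 5 kinases were lower, against 9.03% of all genes, the third being Stk39 (−0.49 ± 0.15; adjusted p = 0.0284), one of a pair of kinases that WNK kinases activate. The other of that pair, Oxsr1, was at 0.21 ± 0.18 (adjusted p = 0.480) and was not called. Stk39 was not called without replicate 2 (−0.55, adjusted p = 0.113) or replicate 3 (−0.30, adjusted p = 0.437), so that 2 and 1 of the 5 kinases were lower there, and Wnk1 was the 1 listed gene that was lower without replicate 3.

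Of the other pump subunits tested, 2 of 5 were lower, against the same 9.03%, with 1 without replicate 2 and 0 without replicate 3. Atp1a4, an alpha subunit known from sperm, went from 38.01 to 14.1 CPM (log2 fold change −1.42 ± 0.29; adjusted p = 0.0013, edgeR). Without replicate 3 it was at −1.16 (adjusted p = 0.0775), and its reads may be uncertain because the alpha subunits are close paralogues. Slc4a3, an anion exchanger, was lower (−0.75 ± 0.16; adjusted p = 0.00182, edgeR). Without replicate 2 or 3 it was not called, at −0.65 (adjusted p = 0.0763) and −0.61 (adjusted p = 0.140). The chloride channel Clcn2 was lower as well, and it was not called without replicate 2 (−0.80, adjusted p = 0.212) or replicate 3 (−1.05, adjusted p = 0.176). Fxyd6, of the FXYD family of pump regulators, was the 1 gene that was higher, from 96.0 to 140 CPM (0.57 ± 0.14; adjusted p = 0.00529), and not with the length trend removed (0.15, adjusted p = 0.564). It was not called either without replicate 2 (0.62, adjusted p = 0.0511) or replicate 3 (0.50, adjusted p = 0.156), which left 0 of the 26 genes higher.

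In the PSD95 pulldowns after KCl, 1 of the 26 genes was higher and 4 were lower, against 3.32% and 3.28% of all genes. The Pan pulldowns had 1 higher and 2 lower (1.87% and 3.16% of all genes). The knockdown inputs had 1 higher and 7 lower (8.98% and 10.3%), and the knockdown pulldowns 4 higher and 6 lower (10.2% and 12%).

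In pulldowns over inputs, 8 of the 26 were higher and 2 lower in the resting PSD95 comparison, against 11.5% and 13.5% of all genes, and 6 and 1 after KCl, against 8.21% and 4.39%. In the resting Pan comparison 2 were higher and 1 lower (4.55% and 5.05%), and after KCl 3 and 0 (5.19% and 3.64%). After DHPG 19 were higher and 3 lower (40.5% and 39.3%). In the knockdown neurons 5 were higher and 3 lower at rest (22.1% and 23.4%), and 7 and 3 after KCl (24% and 24.8%).

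Over the 14 group means, the level of Atp1b1 correlated with that of Slc12a2 (r = 0.824) and Slc12a5 (r = 0.820), and Slc12a2 with Slc12a5 (r = 0.710). Atp1b2 was less like the others, with r = 0.655 with Slc12a5, 0.554 with Atp1b1 and 0.390 with Slc12a2. The genes of the 13685 measured whose group means were most like those of Atp1b1 were Hgsnat (r = 0.958), St3gal6 (0.953) and Slc5a6 (0.952), and for Atp1b2 they were Grm2 (0.938), Ptpro (0.914) and Lhfpl4 (0.914). For Slc12a2 they were Tmem245 (0.956), Slc6a6 (0.942) and Alg3 (0.940), and for Slc12a5 Klhl32 (0.976), Arfgef3 (0.975) and Haghl (0.973). These are descriptions over 14 points that share libraries, depth and the split between inputs and pulldowns.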

How the data were processed

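The data were total and dendritic ribosome profiling libraries of cultured mouse cortical neurons, 38 in 14 groups assigned from the sample titles. Per the labels and the study's methods, the authors trimmed reads, cut off molecular identifiers, kept footprints above a minimum length, aligned them to mm10 and counted them per transcript with plastid, by strand and 5′ end with an offset of 0 and read lengths of 25 to 100 nt. The file headers name alignments marked as freed of ribosomal and duplicate reads, and how duplicates were defined is not given in the sources used here. The deposited values used here were raw counts for the coding sequence and both UTRs, and the deposited RPKM columns were not used. Transcript identifiers were named through GENCODE M21, where 66664 of 67238 coding transcripts (99.1%) matched, and the longest coding transcript stood for each of 22401 genes.

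Differences were fitted on the counts in R 4.3.3 with edgeR 4.0.16 (filterByExpr, TMM, robust quasi-likelihood F-test, Benjamini-Hochberg adjustment over all genes tested, threshold 0.05), with separate fits for the KCl, DHPG and knockdown libraries. A further fit took the knockdown libraries and the PSD95 libraries of the KCl experiment together, inputs and pulldowns alike, and only its inputs were compared. Shares and ratios were tested by exact permutation over libraries, enumerated in Python 3.11.15, with a pseudocount of 0.5 for ratios. CPM values are relative to the coding sequence total of a library (2048604 to 14646402). The edgeR step was tested on simulated counts. The edgeR likelihood ratio test and DESeq2 1.42.0 were among the alternatives. The study used that likelihood ratio test for dendritic translation within resting and within depolarized neurons. For depolarized minus resting differences it used z-scores of the log2 fold changes, which were not rerun here.

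Per the methods, resting and activated samples of a replicate number were processed together. Deviations from the group means of same-numbered libraries correlated at −0.179 to 0.168 between rest and KCl and at 0.152 to 0.501 between input and pulldown. The numbers were taken to pair the samples, and a fit with the number as a block was run as an alternative. The genes and lists were chosen with earlier results of these data known. The genes named were the 4 members, Eif4g2, up to 5 related genes in each direction with the smallest p among those called in the KCl inputs and the 3 most correlated genes per member, while Dlg4, Stk39, Oxsr1 and Clcn2 were named after their values were seen. Some related genes are not reported here by name.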

Additional observations from a re-analysis of the deposited data

Results flagged for a closer look

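Atp1b2, the beta subunit whose pulldown estimates were smallest, moved in opposite directions in different groups when each pulldown was divided by its matched input on coding sequence totals. The log2 ratio was above 0 in every pair of the resting Pan (lowest 0.237), resting PSD95 (lowest 0.0629) and depolarized Pan groups (lowest 0.0750), and below 0 in every pair of the DHPG (highest −0.0551) and resting knockdown groups (highest −0.120). This difference was not tested, and it lies between experiments that were run separately. Against TMM, these totals moved the median of all genes by −0.21 in DHPG and −0.11 in resting knockdown neurons. They moved it by −0.03 in resting PSD95 and −0.05 in both Pan comparisons. On the TMM scale the estimate was 0.08 ± 0.07 in DHPG, not below 0, and −0.08 ± 0.16 in resting knockdown neurons, so the sign depended on the scaling or lay within its error.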

How the results depend on the processing

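Of 868 values of the 4 genes under the alternatives, 737 kept their direction and their side of the threshold, 33 lost a call, 50 gained one and 48 changed sign; where no cause is named, the cause was not tested. Counting coding sequence and 5′ UTR together, chosen after seeing the data, turned the sign of the KCl estimates of Atp1b1 (0.082) and Atp1b2 (0.055) in inputs, of both in PSD95 pulldowns (0.037 and 0.12), of Atp1b2 in Pan pulldowns (0.15), and of the change of PSD95 enrichment with KCl of Atp1b1 (−0.045). It also turned pulldown over input for Atp1b2 in resting PSD95 (−0.047) and DHPG (−0.22) and for Atp1b1 in resting knockdown neurons (−0.015), and gave 1 call in the resting Pan comparison. Removing the length trend turned Slc12a5 in Pan pulldowns after KCl (0.11), Slc12a2 in knockdown inputs after KCl (0.015), Atp1b2 in the change of enrichment (−0.048), Atp1b2 in knockdown pulldowns over inputs (0.27 at rest, 0.30 after KCl) and Slc12a2 in the last of these (−0.29). Its number of genes called was 1 for depolarized PSD95, 0 for depolarized Pan, 2 for knockdown inputs after KCl and 1 for either knockdown pulldown over input. DESeq2 and RLE size factors turned estimates near 0, with Atp1b2 at 0.012 under either and Slc12a5 at 0.018 under either in Pan pulldowns after KCl, and the change of enrichment of Atp1b2 at −0.031 and −0.028, while the most counted transcript gave −0.044 for the latter. Coding sequence totals as the scaling, also chosen after seeing the data, gave −0.13 for Atp1b2 in DHPG.

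In the knockdown inputs after KCl, 1 of the 4 genes was called, with 2 under the likelihood ratio test and the highest-count transcript, and 3 without the filter and with coding sequence totals. DESeq2 called 1 in the knockdown pulldowns after KCl and 1 in the resting Pan comparison, as did the likelihood ratio test in the latter. In the resting PSD95 comparison 2 were called, and 3 by DESeq2, with RLE size factors, the most counted transcript, the length trend removed and coding sequence totals.

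With the replicate number as a block, 3 were called in the knockdown inputs after KCl, 2 in the resting Pan and 2 in the depolarized Pan comparison, and with the block within condition 3 in each of the last 2. Either block also called Atp1b1 in resting PSD95, and neither changed any other call of the 4 genes.

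The ranges here are with 1 replicate number, 1 knockdown library or the third depolarized Pan libraries left out. The genes called ranged from 0 to 1 for KCl in inputs and in PSD95 pulldowns. They ranged from 0 to 3 in resting and depolarized PSD95, 0 to 2 in resting Pan and 0 to 1 in depolarized Pan. The 3 in depolarized PSD95 and the 2 in resting Pan came without the third depolarized Pan libraries. The knockdown fits then leave 1 library in a group, and only estimates are given for them. KCl estimates in inputs ranged from −0.37 to 0.044 for Atp1b1, −0.32 to 0.092 for Atp1b2 and −0.52 to 0.16 for Slc12a5. In PSD95 pulldowns they ranged from −0.37 to 0.083 for Atp1b1 and −0.50 to 0.17 for Atp1b2, and in Pan pulldowns from −0.34 to 0.065 for Atp1b1, −0.34 to 0.31 for Atp1b2 and −0.23 to 0.30 for Slc12a5. Enrichment beyond Pan ranged from −0.16 to 0.0066 for Atp1b2, and its change with KCl from −0.058 to 0.13 for Atp1b1, −0.18 to 0.26 for Atp1b2, −0.20 to 0.070 for Slc12a2 and −0.24 to 0.10 for Slc12a5. Knockdown pulldown over input of Atp1b2 ranged from −0.26 to 0.035 at rest and −0.63 to 0.22 after KCl, and the knockdown difference of Slc12a5 from −0.36 to 0.20. The log2 ratio difference with KCl ranged from −0.14 to 0.31 for Slc12a5 to Slc12a2 and from −0.20 to 0.29 for Atp1b1 to Atp1b2. Over all genes the number called in the KCl inputs was 1999, and 517 to 2095 with the same libraries left out. Those in the 4 PSD95 and Pan pulldown comparisons, 3259, 1640, 1250 and 1150, ranged from 0 to 3358, 3 to 1804, 0 to 1461 and 0 to 593. The shares of all genes called there therefore depend on all 3 replicates. These 4 numbers became 1843, 701, 373 and 333 without the length trend and 5029, 3946, 3660 and 3636 with the block within condition.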
